A study of Mus musculus with 30 samples.

Results

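The genes followed here were 7 genes of the B cell lineage, called the 7 members below: Ighm, Ighd, Igkc, Jchain, Cd79a, Cd79b and Ms4a1. They were found by symbol among the 36103 genes counted, and every member was present once. Ighm was chosen for its large fall in the gastrocnemius of the mutant mice, so its gastrocnemius values chose it and are given as a description with no test. The question was whether the other members followed Ighm in any tissue.

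The mice were males of 5 weeks on a 129Pas background, either Mtm1-/y knock-outs or wild-type (WT) littermates. Mtm1 encodes myotubularin, a phosphoinositide phosphatase whose loss causes X-linked myotubular myopathy, and the deletion is present in every cell of the animal. RNA was taken from whole snap-frozen tissue without sorting, with 4 WT and 4 Mtm1-/y gastrocnemius libraries, 4 WT and 3 Mtm1-/y diaphragm libraries, 4 and 4 heart libraries, and 3 WT and 4 Mtm1-/y liver libraries. In such bulk tissue, fewer B cells and less RNA per B cell cannot be told apart.

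IgM is the first antibody class that a B cell makes. Its heavy chain is the product of Ighm, its light chain most often comes from Igkc in mice, and Ighd gives the heavy chain of IgD from the same long primary transcript. On the cell surface the antibody is held with Cd79a and Cd79b, the signalling pair of the B cell receptor, and mature B cells also carry Ms4a1 (CD20). Plasma cells secrete IgM as a polymer joined by the J chain, the product of Jchain. A functional heavy chain mRNA joins a V, a D and a J segment to the Ighm exons, so B cells and plasma cells that make IgM should contribute V segment reads and light chain reads together with Ighm reads.

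The stretch where that joining takes place is shown because it bears on what the read counts of Ighm can and cannot show. Ighm lies on the minus strand of chromosome 12 at chr12:113418558-113422730 of mm10, and its exons add up to 1.886 kb. The first 50 bases of its exon 1, and the 4 heavy chain J segments upstream of it, are given 5′ to 3′ from the reference, which is C57BL/6J and not 129Pas. Capitals mark the letters TGGGG, searched on the coding strand, which hold the codon of tryptophan and the start of that of glycine in the conserved motif of J segments and were found in 4 of 4.

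Ighj1, chr12:113429781-113429833, minus strand: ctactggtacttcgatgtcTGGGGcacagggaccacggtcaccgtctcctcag

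Ighj2, chr12:113429468-113429515, minus strand: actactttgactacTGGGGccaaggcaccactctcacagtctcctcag

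Ighj3, chr12:113429085-113429132, minus strand: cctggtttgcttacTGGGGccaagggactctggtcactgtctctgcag

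Ighj4, chr12:113428514-113428567, minus strand: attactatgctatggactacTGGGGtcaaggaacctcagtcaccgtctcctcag

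Ighm exon 1, chr12:113422681-113422730, minus strand: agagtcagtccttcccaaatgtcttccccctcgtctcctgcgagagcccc

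The stretches shown are 48 to 54 bases long, about the length of one read of 50 bases, and the counted gene of Ighj2 runs on to position 113429567 in the annotation. A read that spans a J segment and exon 1 touches a pair of genes, and the union mode of counting discards such reads as ambiguous. J segment counts leave out such reads, and V segments, light chain genes and Jchain were used as the companions of Ighm. The annotation gives Ighm a transcript of 4 exons and one of 6 exons, the latter with the exons of the membrane form. Counts are per gene, so secreted and membrane transcripts were not told apart.

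The libraries held 24873817 to 44289343 counted reads. Mtm1, the gene deleted, lay at 12.5 to 31.6 CPM (counts divided by library size in units of 1e6 reads, scaled by TMM, the trimmed mean of M values, within each tissue) in the 15 WT libraries and at 3.37 to 6.39 CPM in the 15 Mtm1-/y libraries, without overlap in any tissue. Some diaphragm libraries stood apart from the rest in markers of other tissues, and these genes were chosen after their values were seen. Alb, the liver's albumin gene, had 645670 to 861957 reads in WT diaphragm 1, 2 and 4 and 792874 reads in Mtm1-/y diaphragm 2, against 9014 to 78085 in the other diaphragm libraries. WT diaphragm 2 also had 283 reads of the T cell gene Cd3e, where the other 6 had 7 to 21. Diaphragm values are therefore given by library, and with each library left out.

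In WT gastrocnemius, Ighm had 1962, 1863, 2571 and 2341 reads in the 4 libraries, which is 54.6, 68.4, 77.0 and 74.2 CPM. In Mtm1-/y gastrocnemius it had 249, 177, 296 and 184 reads, or 5.96, 5.35, 8.19 and 4.95 CPM. Every WT library was above every Mtm1-/y library, and the means were 68.5 ± 9.97 CPM (SD, n = 4) and 6.11 ± 1.45 CPM (SD, n = 4). The log2 fold change of Mtm1-/y over WT was -3.48 with a standard error of 0.17. It was the difference by which Ighm was chosen, and it carries no test here. Genes whose genotypes did not overlap with the mutant lower made up 16.2% of the genes tested in gastrocnemius, and 1.79% of them were called lower (adjusted p under 0.05 and a log2 fold change beyond 1 in either direction).

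The other 6 members were near the lower limit of the counts in the same gastrocnemius libraries. Igkc, the constant region of the light chain, had 2, 11, 2 and 12 reads in the WT libraries and 18, 15, 7 and 7 in the Mtm1-/y libraries. The genotypes overlapped, and the fitted log2 fold change was 0.55 with a standard error of 0.62. Jchain had 9 to 24 reads in WT and 13 to 26 in Mtm1-/y, with a log2 fold change of -0.08 and a standard error of 0.38. Cd79b had 8 to 15 reads in WT and 5 to 28 in Mtm1-/y, with a log2 fold change of -0.01 and a standard error of 0.45.

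Ighd, Cd79a and Ms4a1 did not pass the filter on low counts in this tissue. Ighd had 2 to 8 reads in WT and 2 to 5 in Mtm1-/y, Cd79a 1 to 2 and 1 to 7, and Ms4a1 0 to 4 and 0 to 2. Of the 7 members, 4 were therefore fitted and 1, Ighm, met the limits of a call, against 6.63% of all genes. Since Ighm was chosen on this contrast, nothing is read from that count.

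**Figure D1:**
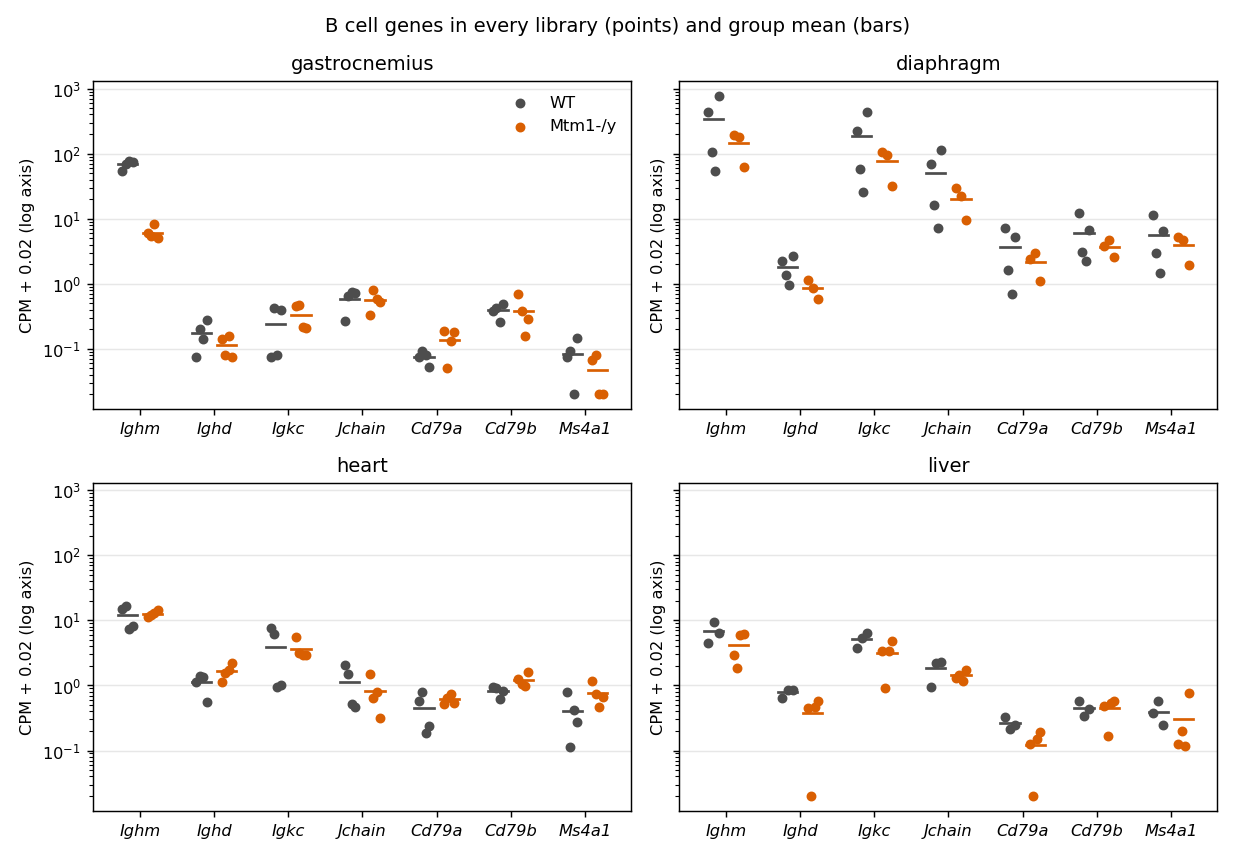
CPM plus 0.02 on a log axis for the 7 members in each tissue, with 1 point per library (grey, WT; orange, Mtm1-/y) and a bar at the group mean. In gastrocnemius the Ighm points of WT lie at 54.6 to 77.0 CPM, apart from all other members in that panel, whereas in diaphragm, heart and liver the members spread without such a gap.

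The share of the members' reads that belonged to Ighm was higher in gastrocnemius than in the other tissues. In gastrocnemius this share is a description only, since it contains the counts by which Ighm was chosen. In the 4 WT gastrocnemius libraries Ighm made up 97.4% to 98.5% of the reads of the 7 members, and in the Mtm1-/y libraries 75.3% to 87.8%. The range was 56.5% to 58.6% over the 7 diaphragm libraries, 50.9% to 72.1% in heart and 33.9% to 51.0% in liver. The summed reads of the other 6 members were 30 to 62 in WT gastrocnemius and 41 to 73 in Mtm1-/y gastrocnemius, so the genotypes overlapped in that sum.

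The ratio of heavy to light chain reads was taken per library from the same Ighm counts, so in gastrocnemius it is also a description. WT gastrocnemius held 169 to 1286 Ighm reads for each Igkc read, with a median of 588, although the denominators were only 2 to 12 reads. Mtm1-/y gastrocnemius held 11.8 to 42.3, with a median of 20.1. In diaphragm the ratio was 1.76 to 2.07 in WT and 1.84 to 2.02 in Mtm1-/y, the narrowest range of any tissue. Heart ranged from 2.02 to 8.48 in WT and from 2.07 to 4.92 in Mtm1-/y, and liver from 0.994 to 1.77 in WT and from 0.882 to 2.04 in Mtm1-/y.

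The mean log2 ratio of Ighm to Igkc was then compared between genotypes in the 3 tissues that did not choose Ighm, a comparison added after the values were seen. The mean was 0.93 in WT and 0.95 in Mtm1-/y diaphragm (exact permutation test, two-sided, p = 0.857). In heart it was 2.14 in WT and 1.86 in Mtm1-/y (exact permutation test, p = 0.629), and in liver 0.37 and 0.51 (exact permutation test, p = 0.686). After adjustment over the 3 tests each p was 0.857 by the exact permutation test. The smallest unadjusted p that this test could give was 0.0286 in heart. In diaphragm and liver, where the groups differ in size, the two-sided test could not give a p under 0.05. No genotype difference in the ratio was detected in heart, and the test could not decide the question in diaphragm and liver.

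**Figure D2:**
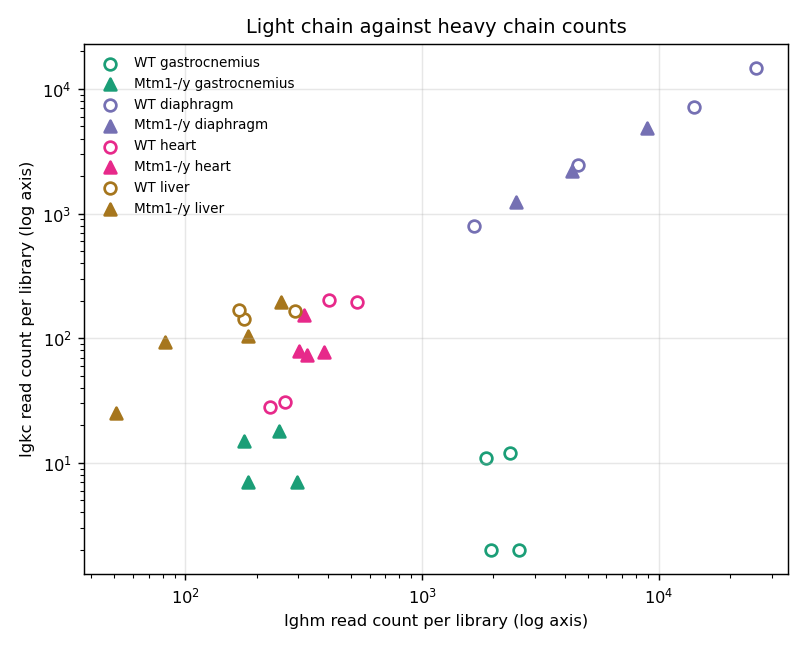
Igkc read count against Ighm read count in each of the 30 libraries, both on log axes (open circles, WT; triangles, Mtm1-/y; colour, tissue). The 7 diaphragm libraries lie along 1 line at 1.76 to 2.07 Ighm reads per Igkc read, and the 4 WT gastrocnemius libraries lie far to the right at 2 to 12 Igkc reads.

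V segments are the part of the antibody genes that differs from one B cell clone to the next. The table of counts had 219 of them, with 114 for the heavy chain, 102 for the kappa chain and 3 for the lambda chain. All V segments together had 0, 4, 0 and 9 reads in WT gastrocnemius, where Ighm had 1863 or more in each library, and 10, 7, 6 and 5 reads in Mtm1-/y gastrocnemius. Heavy chain V segments alone had 0, 3, 0 and 3 reads in WT gastrocnemius and 3, 1, 0 and 3 in Mtm1-/y. The heavy chain J segments summed to 1 read over the 4 WT gastrocnemius libraries and to 5 reads over the 4 Mtm1-/y ones.

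In diaphragm the V segments were counted in numbers that followed Ighm. They had 4824, 1274, 592 and 7609 reads in WT and 3227, 1283 and 911 in Mtm1-/y, which is 2.75 to 3.57 Ighm reads for each V segment read. Heart had 3.51 to 15.5 Ighm reads for each V segment read and liver had 1.34 to 5.67. The heavy chain J segments summed to 144 reads in WT diaphragm and 84 in Mtm1-/y diaphragm.

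**Figure D3:**
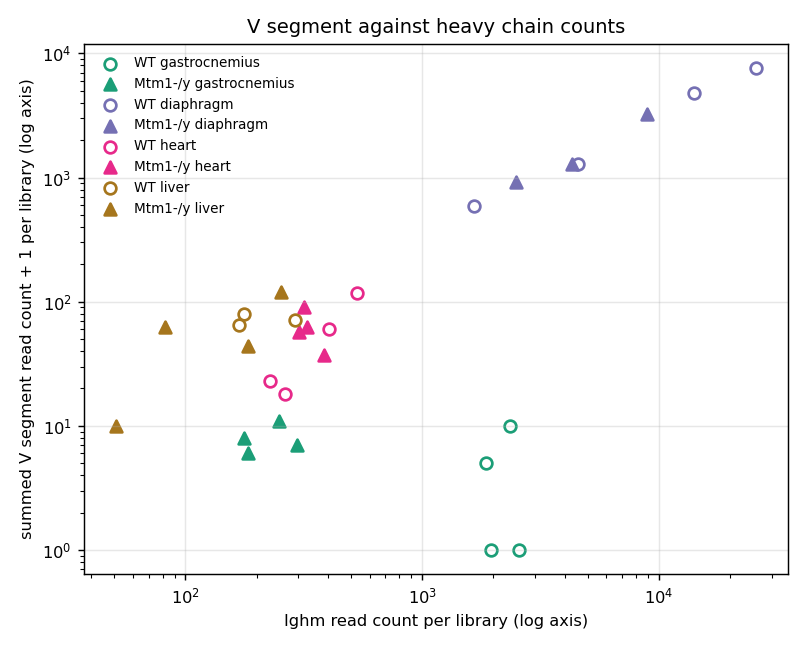
Summed read count of the 219 V segments plus 1 against the Ighm read count in each of the 30 libraries, both on log axes (open circles, WT; triangles, Mtm1-/y; colour, tissue). WT gastrocnemius libraries have 0 to 9 V segment reads at 1863 to 2571 Ighm reads, whereas diaphragm libraries have 592 to 7609.

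The 3 V segments with the most reads over all libraries were Igkv6-23, Ighv2-9 and Igkv14-126, with 2151, 2144 and 1266 reads. Igkv6-23 had 1588 of its reads in WT diaphragm and 541 in Mtm1-/y diaphragm, and none in gastrocnemius. Ighv2-9 had 1514 in WT and 613 in Mtm1-/y diaphragm and 2 reads in gastrocnemius. Igkv14-126 had 797 in WT and 429 in Mtm1-/y diaphragm and 3 reads in gastrocnemius.

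The V segment with the most reads differed among diaphragm libraries. It was Iglv1 with 8.69% of the V segment reads in WT diaphragm 1, Igkv14-126 with 18.3% in WT diaphragm 2, Igkv16-104 with 10.5% in WT diaphragm 3 and Igkv6-23 with 17.5% in WT diaphragm 4. Among the Mtm1-/y libraries, Ighv2-9 took 13.4% in library 1, Igkv6-23 took 10.4% in library 2 and Igkv8-30 took 37.0% in library 4. Similar V segments share sequence, and reads that fit more than one place were not counted, so these shares are uncertain.

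The diaphragm had the highest mean level of every member in WT animals, on the scale of CPM per kb of exon. Ighm was at 156 ± 151 CPM per kb in WT diaphragm (SD, n = 4), 39.6 ± 5.85 in WT gastrocnemius (SD, n = 4), 5.38 ± 2.15 in WT heart (SD, n = 4) and 4.55 ± 1.64 in WT liver (SD, n = 3). The diaphragm libraries ranged from 24.6 to 351 and enclosed the gastrocnemius range of 31.4 to 44.2, so these neighbours were not separated. Heart, at 3.37 to 7.66, and liver, at 3.05 to 6.29, overlapped too, and both lay below every gastrocnemius library.

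The order of tissues was another for the companions of Ighm. Igkc was at 301 ± 305 CPM per kb in WT diaphragm (SD, n = 4), 12.3 ± 3.31 in liver (SD, n = 3), 6.25 ± 5.52 in heart (SD, n = 4) and 0.463 ± 0.399 in gastrocnemius (SD, n = 4). Jchain was at 17.5 ± 16.7, 0.915 ± 0.391, 0.372 ± 0.258 and 0.248 ± 0.0952 in the same order of tissues. Gastrocnemius, second highest for Ighm, was thus lowest by mean level for Igkc and Jchain. It was also lowest by mean level for Ighd at 0.0882 CPM per kb, Cd79a at 0.0412, Cd79b at 0.282 and Ms4a1 at 0.0113.

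A set of 3 contrasts between WT tissues were tested, none of which chose the members, and they share libraries with each other. In WT heart against WT diaphragm, 6 of 7 members were lower by edgeR's quasi-likelihood test with Benjamini-Hochberg adjustment, where 18.2% of all genes were lower. Ighm fell by 4.87 on the log2 scale (SE 0.71, adjusted p = 6.66e-05 by edgeR), Igkc by 5.61 (SE 0.94) and Jchain fell by 5.59 (SE 0.83). Cd79a fell by 3.12 (SE 0.64), Cd79b fell by 2.94 (SE 0.46) and Ms4a1 fell by 3.92 (SE 0.68). Ighd, with a log2 fold change of -0.74 (SE 0.38), did not pass (adjusted p = 0.117 by edgeR).

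In WT diaphragm against WT liver, 6 of 7 members were higher, against 30.6% of all genes. Ighm rose by 5.15 on the log2 scale (SE 0.82, adjusted p = 6.15e-05 by edgeR) and Igkc by 4.68 (SE 1.02, adjusted p = 0.000861). Jchain was higher by 4.34 (SE 0.88), Cd79a by 3.36 (SE 0.76), Cd79b by 3.26 (SE 0.54) and Ms4a1 by 3.35 (SE 0.75). Ighd again did not pass, at 0.72 (SE 0.42, adjusted p = 0.134 by edgeR).

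Between WT heart and WT liver, 0 of 7 members were called by edgeR, 0 had an unadjusted p under 0.05, and DESeq2 gave the same counts. Of all genes edgeR called 52.8% and DESeq2 30.7%, and 77.8% and 44.8% had an unadjusted p under 0.05. The log2 fold change of Ighm was 0.28 (SE 0.67, adjusted p = 0.716 by edgeR). Blood, lymph node or fat left on the dissected diaphragm could not be measured apart from the muscle in these libraries. A list of lymph node stroma and high endothelial venule genes summed to 19.4 to 47.0 CPM in WT diaphragm, against at most 2.80 in WT gastrocnemius, 9.96 to 21.7 in WT heart and 1.98 to 2.46 in WT liver. A list of adipocyte genes summed to 483 to 1767 CPM in WT diaphragm, against 210 to 288, 406 to 514 and 10.2 to 10.9 in the same tissues. A list of erythroid genes, which mark blood, summed to 1582 to 3207 CPM in WT diaphragm, against 111 to 207, 415 to 1859 and 359 to 533. The adipocyte sum need not follow most genes of its list. In heart the list had a median log2 fold change of Mtm1-/y over WT of -2.72 by edgeR. Its sum there was 402 to 507 CPM in Mtm1-/y, near that of WT heart. The part of lymph node, fat and blood in the diaphragm levels was not tested.

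In diaphragm the members varied together from library to library. Ighm was at 436, 108, 54.1 and 771 CPM in WT diaphragm 1 to 4 and at 192, 183 and 63.1 CPM in the Mtm1-/y libraries numbered 1, 2 and 4. Igkc was at 223, 57.8, 26.2 and 439 CPM in WT and 105, 93.8 and 31.3 CPM in Mtm1-/y. Jchain was at 69.8, 16.1, 7.08 and 112 CPM in WT and 29.4, 22.0 and 9.42 CPM in Mtm1-/y. WT diaphragm 4 and 1 were the highest libraries for each of these genes and WT diaphragm 3 the lowest, so the mutant libraries fell inside the WT range.

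The receptor genes and Ms4a1 had the same libraries at the top in the other order. Cd79a was at 7.15, 1.59, 0.685 and 5.16 CPM in WT diaphragm and at 2.41, 2.98 and 1.09 CPM in Mtm1-/y. Cd79b was at 12.1, 3.10, 2.18 and 6.74 CPM in WT and at 3.82, 4.73 and 2.60 CPM in Mtm1-/y. Ms4a1 was at 11.5, 2.91, 1.43 and 6.38 CPM in WT and at 5.15, 4.65 and 1.89 CPM in Mtm1-/y. WT diaphragm 1 was here above WT diaphragm 4, and WT diaphragm 3 was again lowest.

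The correlation of each member with Ighm in log2 CPM was taken over the libraries of a tissue, in diaphragm, heart and liver, with both genotypes pooled, which makes 18 relations. In diaphragm (7 libraries) Pearson's r was 0.999 for Igkc (exact permutation p = 0.000198, the smallest that 7 libraries can give, adjusted 0.00179), with Spearman's rho of 1 (exact permutation p = 0.000397). Jchain had an r of 0.996 and also a rho of 1, each at the same exact permutation p as for Igkc. For Cd79a r was 0.947 and rho 0.929 (exact permutation p = 0.00278 and 0.00675). For Ms4a1 they were 0.901 and 0.964 (exact permutation p = 0.00813 and 0.00278), and for Cd79b 0.884 and 0.929 (exact permutation p = 0.00694 and 0.00675). These were all under 0.05 after adjustment over the 18 relations, at 0.0163 for r in each of the 3. Ighd had the lowest, with an r of 0.859 (exact permutation p = 0.0171, adjusted 0.0307) and a rho of 0.750 (exact permutation p = 0.0663). Without WT diaphragm 3 and 4, the libraries farthest from the median of Ighm, r stayed at 0.827 to 0.999 for the 6 members.

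In heart and liver the relations rested on the extreme libraries. Over 8 heart libraries, r was 0.914 and rho 0.810 for Cd79a (exact permutation p = 0.00531 and 0.0218), and r was 0.873 and rho 0.738 for Igkc (exact permutation p = 0.00791 and 0.0458). Without WT heart 3 and 4 these were 0.431 and 0.379. Over 7 liver libraries, r was 0.870 and rho 0.929 for Igkc (exact permutation p = 0.00675 for each). For Ighd r was 0.844 and rho 0.857 (exact permutation p = 0.00714 and 0.0238). The r of Igkc and Ighd in liver was 0.530 and 0.506 without Mtm1-/y liver 1 and 2. The adjusted p was 0.0163 by the exact permutation test for each of these 4 values of r. Of the 4 values of rho, that of Igkc in liver passed (adjusted 0.0202), and those of Cd79a in heart (0.0536), Igkc in heart (0.0917) and Ighd in liver (0.0536) did not. The remaining members had r from -0.03 to 0.776 in these tissues, and none of those passed after adjustment over the 18 relations. In gastrocnemius the Ighm values of the genotypes form separate clusters of 4 libraries, so no correlation was taken.

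**Figure D4:**
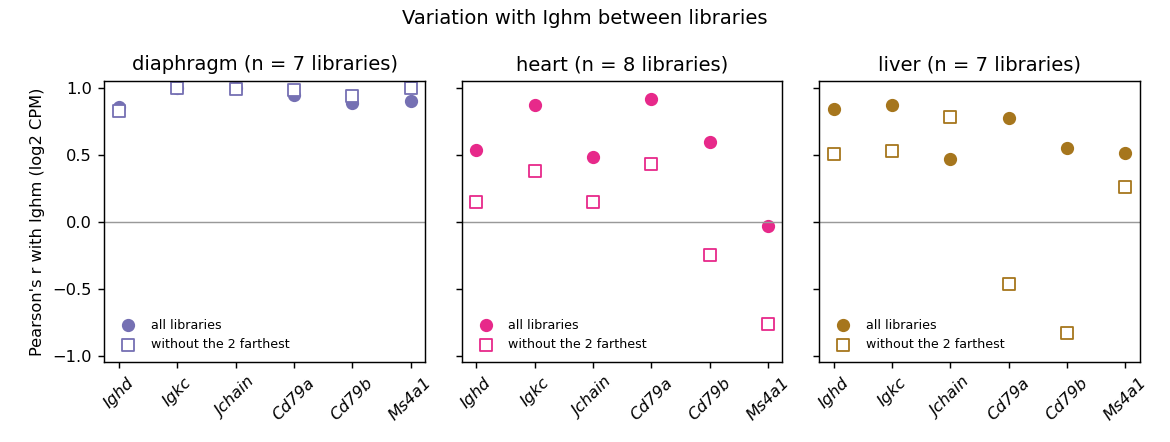
Pearson's r of each of the other 6 members with Ighm in log2 CPM over the libraries of diaphragm, heart and liver (filled circles, all libraries; open squares, without the 2 libraries farthest from the median of Ighm). In diaphragm all values lie at 0.827 or above with either set, whereas in heart and liver the open squares run from -0.832 to 0.781.

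None of the members was called between genotypes outside gastrocnemius. In diaphragm, 0 of 7 members were called by edgeR or by DESeq2, with 1 member at an unadjusted p under 0.05 by each tool, where edgeR called 0.0119% of all genes and DESeq2 0.963%, and 10.8% and 7.06% had an unadjusted p under 0.05. All 7 log2 fold changes were below 0, with a median of -1.08, beside -0.01 over all genes tested. Ighm stood at -1.23 (SE 0.92, adjusted p = 0.722 by edgeR), Igkc at -1.28 (SE 0.96, adjusted p = 0.722) and Jchain at -1.34 (SE 0.94, adjusted p = 0.698). These were within the spread between libraries. The members share the same high WT libraries, so their common sign is not that of 7 separate measurements.

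Ighd was the member with the unadjusted p under 0.05 in diaphragm (log2 fold change -1.08, SE 0.43, adjusted p = 0.440 by edgeR). It was at 2.19, 1.33, 0.946 and 2.68 CPM in WT and at 1.12, 0.853 and 0.555 CPM in Mtm1-/y, so the highest mutant library lay above WT diaphragm 3. Cd79a, Cd79b and Ms4a1 had log2 fold changes of -0.76 (SE 0.79), -0.70 (SE 0.60) and -0.51 (SE 0.71), with adjusted p = 0.825, 0.761 and 0.894 by edgeR. One library decided the size for several members: without WT diaphragm 4 the log2 fold change of Ighm was -0.45 and that of Igkc -0.42. Without WT diaphragm 1, Cd79a was at -0.20, Cd79b at -0.11 and Ms4a1 at 0.12. Without WT diaphragm 2, the library with the T cell reads, Ighm was at -1.51 and Igkc at -1.57.

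**Figure D5:**
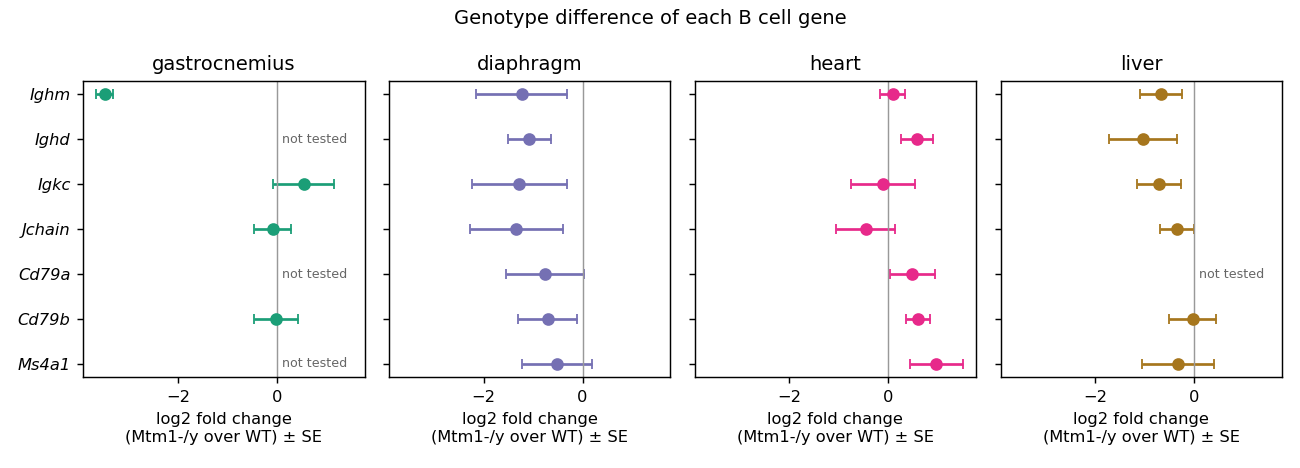
Log2 fold change of Mtm1-/y over WT with its standard error for each member in each tissue, from edgeR; a member removed by the filter on low counts is marked as not tested. In gastrocnemius Ighm lies at -3.48, the difference by which it was chosen, and in the other tissues the points lie between -1.34 and 0.98 with 0 members called.

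In heart, Ighm had 15.2, 16.9, 7.47 and 8.32 CPM in WT and 11.4, 11.9, 13.1 and 14.5 CPM in Mtm1-/y. The mutant libraries lay within the WT range, and the log2 fold change was 0.09 (SE 0.26, adjusted p = 0.894 by edgeR). Igkc split the WT hearts in the same way, with 7.53, 6.24, 0.918 and 0.981 CPM against 5.53, 3.12, 2.94 and 2.94 CPM in Mtm1-/y. Its estimate was -0.10 on the log2 scale (SE 0.65, adjusted p = 0.954 by edgeR). WT heart 1 and 2 were thus the high libraries and WT heart 3 and 4 the low ones for both chains.

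Cd79b was the single member without overlap of the genotypes in heart. It had 0.937, 0.887, 0.590 and 0.791 CPM in WT and 1.23, 1.03, 0.966 and 1.62 CPM in Mtm1-/y. Its log2 fold change of 0.60 (SE 0.25) had an adjusted p = 0.546 by edgeR, and 2.10% of the genes tested were without overlap and higher in the mutant heart. Of the 7 members, 0 were called by edgeR, with 1 at an unadjusted p under 0.05, and 0 were called by DESeq2, with none at that p. Of all genes edgeR called 0.00656% and DESeq2 0.23%, and 8.88% and 6.11% had an unadjusted p under 0.05. Jchain (log2 fold change -0.46, SE 0.59), Ighd (0.58, SE 0.32), Cd79a (0.48, SE 0.46) and Ms4a1 (0.98, SE 0.54) had adjusted p from 0.553 to 0.753 by edgeR.

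In liver, Ighm had 4.55, 9.36 and 6.32 CPM in WT and 2.95, 1.84, 5.96 and 6.18 CPM in Mtm1-/y. The genotypes overlapped, and the estimate was -0.66 on the log2 scale (SE 0.42, adjusted p = 0.969 by edgeR). Igkc had 3.70, 5.29 and 6.35 CPM in WT and 3.34, 0.903, 3.37 and 4.81 CPM in Mtm1-/y, an estimate of -0.71 on that scale (SE 0.45, adjusted p = 0.969 by edgeR). Mtm1-/y liver 2 was the lowest liver library for both chains.

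Ighd and Cd79a were without overlap in liver and lower in the mutant, as were 3.47% of the genes tested. Ighd had 24, 26 and 22 reads in WT and 12, 0, 14 and 23 reads in Mtm1-/y, which is 0.616 to 0.839 CPM and 0 to 0.562 CPM, for an estimate of -1.03 (SE 0.69, adjusted p = 0.969 by edgeR). Cd79a had 12, 6 and 6 reads in WT and 3, 0, 4 and 7 in Mtm1-/y, which is 0.194 to 0.308 CPM and 0 to 0.171 CPM, and was removed by the filter on low counts. At these depths a count of 0 allows a level of up to 3 reads, which is 0.108 CPM in Mtm1-/y liver 2. Of the 6 members that edgeR tested, 0 were called, with 0 at an unadjusted p under 0.05. DESeq2 fitted all 7 and called 0, with 0 at that p. It gave Cd79a no adjusted p, so Cd79a could not be called. Of all genes edgeR called 0% and DESeq2 0.0438%, with 4.24% and 2.72% at an unadjusted p under 0.05.

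Whether the genotype difference itself depended on the tissue was tested as an interaction. The difference of log2 fold changes, heart minus diaphragm, was above 0 for all 7 members, with a median of 1.31. The median was 0.86 without WT diaphragm 1 and 1.60 without WT diaphragm 3, the lowest and highest when 1 diaphragm library was left out. For Ighm it was 1.34 (SE 0.95, adjusted p = 0.681 by edgeR), for Ighd 1.67 (SE 0.56, adjusted p = 0.313 by edgeR) and for Cd79b 1.31 (SE 0.65). No member was called by edgeR, with 1 at an unadjusted p under 0.05, nor by DESeq2, with 2. Of all genes edgeR called 0.00573% and DESeq2 0.529%, with 10.6% and 6.57% at an unadjusted p under 0.05. For heart minus liver Ighm was at 0.74 (SE 0.53, adjusted p = 0.902 by edgeR), and for diaphragm minus liver at -0.62 (SE 1.09). The median over the members in diaphragm minus liver was -0.62, and ran from -0.96 without WT diaphragm 3 to 0.16 without WT diaphragm 4. In both of these 0 members were called by edgeR. DESeq2 called 0 in diaphragm minus liver. In heart minus liver it gave the 7 members no adjusted p, so none could be called there. The 1 member at an unadjusted p under 0.05 was by DESeq2 in heart minus liver. Of all genes edgeR called 0% in either, and DESeq2 called 0.189% in heart minus liver and 0.0394% in diaphragm minus liver. An unadjusted p under 0.05 was held by 5.56% (edgeR) and 3.66% (DESeq2) in the former and by 5.12% and 3.72% in the latter. No difference between these tissues was detected for the members, and the 3 interactions share libraries.

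Other genes of the B lineage were taken from a list of 26. In gastrocnemius DESeq2 fitted all 26 without the filter, though it gives some genes of low counts no adjusted p, and those cannot be called. It called 3 higher in Mtm1-/y (Btk, Cd72 and Cd37) and 0 lower, where it called 2.94% of all genes fitted higher. The median log2 fold change of the 26 was 0.56, beside 0.07 over all genes that DESeq2 fitted. After the filter on low counts edgeR fitted 10 and called the same 3 and H2-Ob higher, with 4.84% of all genes called higher. Several of these are low in WT and passed the filter through the mutant libraries, so nothing is read from the count of 10. The 4 genes, named after their values were seen, were Btk and Cd72, which signal at or below the B cell receptor, Cd37, a tetraspanin, and H2-Ob, a part of the antigen-loading machinery. Btk went from 0.286 ± 0.0838 to 0.766 ± 0.187 CPM (SD, n = 4 and 4), a log2 fold change of 1.40 (SE 0.29). Cd72 went from 0.176 ± 0.0858 to 0.524 ± 0.0514 CPM, Cd37 from 0.837 ± 0.366 to 1.73 ± 0.348 CPM and H2-Ob from 0.278 ± 0.108 to 0.604 ± 0.185 CPM.

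These 4 genes are also expressed outside the B lineage, and lists of macrophage and antigen presentation genes were higher in the same comparison. Of 8 macrophage genes, edgeR and DESeq2 each called 7 higher in Mtm1-/y gastrocnemius and 0 lower. Of all genes edgeR called 4.84% higher and DESeq2 2.94%. The summed level of the 8 was 41.4 to 72.0 CPM in WT and 106 to 132 CPM in Mtm1-/y. Both tools called all 7 genes of MHC class II presentation higher, with a summed level of 40.5 to 53.3 CPM in WT and 182 to 282 CPM in Mtm1-/y. In diaphragm the median log2 fold change by edgeR was 1.00 for the MHC class II list, 0.27 for the macrophage list and -0.62 for the B lineage list. In the same order the medians were -0.04, -0.11 and 0.28 in heart, and -0.86, -0.51 and -0.37 in liver. The part of macrophage and MHC class II expression in the B lineage counts was not tested.

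In the other tissues the B lineage list gave 0 calls by edgeR and 0 by DESeq2. Of all genes edgeR called 0.0119% in diaphragm, 0.00656% in heart and 0% in liver, and DESeq2 0.963%, 0.23% and 0.0438%. At an unadjusted p under 0.05 stood 0 genes in diaphragm, 5 in heart and 0 in liver by edgeR, and 1, 5 and 0 by DESeq2. Over all genes these shares were 10.8%, 8.88% and 4.24% by edgeR, and 7.06%, 6.11% and 2.72% by DESeq2. In heart, 5 of 17 by edgeR and 5 of 26 by DESeq2 were larger shares than over all genes. In diaphragm 22 genes were tested, and their log2 fold changes had a median of -0.62, in heart 17, with a median of 0.28, and in liver 14, with a median of -0.37. Over all genes tested these medians were -0.01, -0.0016 and 0.0055. Over all 26 genes, in DESeq2, the medians were -0.69, 0.44 and -0.43. Lists of other tissues and cells also differed between genotypes in heart. There the median log2 fold change by edgeR was 2.39 for hepatocyte, 0.99 for erythroid, -2.72 for adipocyte and -0.11 for macrophage genes. Whether stray tissue bears on the B lineage genes in heart was not tested. The B lineage list summed to 25.2 to 34.1 CPM in WT gastrocnemius and 30.0 to 50.1 CPM in Mtm1-/y. In diaphragm it summed to 48.1 to 122 CPM in WT and 58.5 to 75.5 CPM in Mtm1-/y, and the genotypes overlapped in both tissues. The sum was 67.2 to 80.9 CPM in WT liver, where Cd79a was at 0.194 to 0.308 CPM. It is therefore not read as a level of B cells.

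The other immunoglobulin constant region genes, a list of 9, were the closest relatives of Ighm. In gastrocnemius none of them passed the filter, and they summed to 0 to 0.324 CPM in WT and 0.0581 to 0.591 CPM in Mtm1-/y. In diaphragm they summed to 6.19 to 61.8 CPM in WT and 2.40 to 17.8 CPM in Mtm1-/y. There edgeR tested 6 and called 0 (0 at an unadjusted p under 0.05), and DESeq2 called 0 (1 at that p). Of all genes edgeR called 0.0119% in diaphragm and DESeq2 0.963%, with 10.8% and 7.06% at an unadjusted p under 0.05. Of 8 genes of plasma cells, all fitted by DESeq2 in gastrocnemius, 1 was called higher, as was 1 of the 6 that edgeR fitted, against the 2.94% and 4.84% of all genes. It was Tnfrsf13b, a receptor for survival ligands of B cells, at 0.328 ± 0.113 CPM in the WT muscle against 0.890 ± 0.153 CPM in the mutant. It too was named after its values were seen.

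T cells, which often accompany B cells, were read from a list of 16 genes. In gastrocnemius 2 of the list were tested and 0 called by edgeR, with 0 at an unadjusted p under 0.05, and 1 of 16, Lef1, was called higher by DESeq2, against 2.94% of all genes. Lef1 was named after its value was seen. The list had a sum of 2.52 to 4.40 CPM in WT and 3.17 to 10.2 CPM in Mtm1-/y. In diaphragm edgeR tested 14 and called 0 (1 at an unadjusted p under 0.05), at a median of -2.07 on the log2 scale. DESeq2 called 0 (2 at that p). Of all genes edgeR called 0.0119% and DESeq2 0.963%, with 10.8% and 7.06% at an unadjusted p under 0.05. The list summed to 132 CPM in WT diaphragm 2, where the WT median was 13.1 and the lowest WT library 7.53 CPM. In Mtm1-/y diaphragm it summed to 7.85 to 9.57 CPM.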

How the data were processed

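RNA sequencing libraries of 30 whole-tissue samples were used. Per the labels and the methods of the study, poly-A RNA was made into stranded libraries and read as single 50-base reads. Reads were trimmed with cutadapt 1.10, aligned to mm10 with STAR 2.5.3a and counted per gene with HTSeq 0.6.1p1 in union mode, keeping unique and unambiguous reads; the strand setting of the counting is not given in the sources used here. The authors deposited raw read counts per gene. Reads that align to several immunoglobulin genes, or to 129Pas sequence absent from the C57BL/6J reference, are not counted.

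Each tissue was filtered with filterByExpr (count minimum of 10), scaled by TMM and tested with edgeR 4.0.16 (quasi-likelihood test, Benjamini-Hochberg over all genes tested) in R 4.3.3. Calls needed a log2 fold change beyond 1 in size together with an adjusted p under 0.05, the limits used in the study. Interactions were fitted on the libraries of both tissues, and WT contrasts on the 15 WT libraries. Correlations used log2 CPM with a prior count of 2. DESeq2 1.42.0 was an alternative, beside those in the closing section. The fitting code was tested on simulated data. Samples were grouped by the tissue and genotype of their labels. The study gives its sample numbers as mice per group, so libraries within a group were taken as separate mice. Tissues of one mouse could not be matched by the labels. The WT contrasts and interactions therefore treat libraries of different tissues as independent, although they may share animals.

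The members and gene lists were chosen with earlier results of these data known. Named genes were the members, Mtm1, up to 4 genes per list by mean CPM, the 3 V segments with the most reads and the 10 genes outside the immunoglobulins most like Ighm, of which 1 is not reported here. Genome positions come from GENCODE M21 on mm10. Intervals and floors cover counting error only.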

Additional observations from a re-analysis of the deposited data

Results flagged for a closer look

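In 42 groups of 4 libraries, 1 value for each member and group, 2 held a library farther from the others than Dixon's critical value of 0.829 allows, where chance flags about 1 in 20 groups. Igkc was at 5.53 CPM in Mtm1-/y heart 1, above the other 3 mutant hearts at 2.94 to 3.12 CPM, with a gap of 0.928 of the range. Ms4a1 was at 0.757 CPM in Mtm1-/y liver 4, above the other 3 mutant livers at 0.0972 to 0.181 CPM, with a gap of 0.874 of the range. The first was 153 reads against 73 to 79, and the second 31 reads against 3 to 5.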

How the results depend on the processing

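In the genotype comparisons within a tissue, the number of members called was kept when edgeR was scaled by the size factors of DESeq2, when low counts were kept, with DESeq2, with the adjusted p alone, in 1 fit of all 30 libraries, and with each library left out. The WT contrasts and interactions were also fitted with DESeq2, which kept their counts, save that in heart minus liver it gave the members no adjusted p. With each WT library of the contrast left out, 6 to 7 members were called in WT heart against WT diaphragm, 6 in WT diaphragm against WT liver and 0 in WT heart against WT liver. With each diaphragm library left out, 0 members were called in the 2 interactions with diaphragm; that of heart minus liver was not refitted. Leave-outs of the WT contrasts and interactions, and the ratio of Ighm to Igkc, were added after the data were seen. Leaving out 1 library at a time, the log2 fold change of Ighm ran from -3.64 to -3.38 in gastrocnemius and from -1.57 to -0.45 in diaphragm, where Igkc ran from -1.63 to -0.42 and Jchain from -1.71 to -0.61. Signs of uncalled members changed in 17 cases, among them Ighm in heart (-0.08 without WT heart 3), Igkc in heart (0.42 without WT heart 1) and Ms4a1 in diaphragm (0.12 without WT diaphragm 1). Libraries of the same number deviated together in some pairs and not in others. Correlations of the pairs ran from -0.04 to 0.10 in gastrocnemius, -0.64 to 0.46 in diaphragm, -0.55 to 0.26 in heart and -0.05 to 0.34 in liver. With signs mixed in every tissue, the numbers were not taken as pairs. With the replicate number as a block, the members called were 1 in gastrocnemius and 0 in diaphragm, heart and liver, and Ighm had log2 fold changes of -3.49, -1.31, 0.17 and -0.97. The common biological coefficient of variation over all genes was 0.394 in diaphragm, against 0.171 in gastrocnemius, 0.208 in heart and 0.229 in liver. Counts of at most 28 reads per library limit the other 6 members in gastrocnemius.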

Other observations

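Genes that varied like Ighm were ranked by Pearson's r of log2 CPM over the 30 libraries, each tissue centred on its own mean, as a description: the ranking includes the gastrocnemius libraries that chose Ighm. Of 15946 genes ranked, 33 were immunoglobulin genes, Ighm among them, and none was among the 100 most like Ighm. With so few ranked, nothing is read from that count. Among the members, Ighd came first at an r of 0.543 and rank 513, then Jchain at 0.510 and rank 748. Cd79b was at 0.459, Ms4a1 at 0.453, Igkc at 0.40 and Cd79a at 0.381, at ranks 1184 to 2105.

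Among the 10 genes most like Ighm were Slc2a3, Gm48199, Slc25a25, C2cd2, Gm10032, Erp44, Amd1, Gm15737 and Themis3, with r from 0.737 to 0.819. Slc2a3, a glucose transporter, was at 11.7 ± 2.85 CPM in the gastrocnemius of WT mice and 1.99 ± 0.665 CPM in that of the mutants (SD, n = 4 in each). Amd1, an enzyme of polyamine synthesis, was at 168 ± 33.2 and 18.3 ± 2.97 CPM. Slc25a25, a mitochondrial carrier, was at 322 ± 80.4 and 104 ± 47.9 CPM. Themis3 was at 1.61 ± 0.678 and 0.0290 ± 0.0335 CPM.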
